A study of Homo sapiens with 14 samples.

Results

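The proteasome genes of 4 pooled CRISPR screens were taken as every gene whose symbol starts with PSMA, PSMB, PSMC, PSMD, PSME or PSMG followed by a digit. This gave 48 of the 19114 genes in the knockout library, with 192 of its 77441 guides, and the same 48 of the 18886 genes in the activation library, with 144 of its 56762 guides. Both lines screened, RKO and SW620, are established human colorectal cancer cell lines. Cells carrying Cas9 received the Brunello library, in which each guide directs a cut in a gene, and cells carrying dCas9-VP64, a cutting-dead Cas9 fused to a transcriptional activator, received the Calabrese library, whose guides lie at promoters. Each of the 4 screens was sampled at day 0, at day 20 without drug, and at day 20 with oxaliplatin, a platinum drug that crosslinks DNA. The dose was 1.9 µM for RKO, while SW620 had a library each at 0.38 and 0.5 µM. All groups thus carry an editor and a guide library and had gone through blasticidin and puromycin selection, and each of the 14 conditions is 1 library with no replicate.

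The proteasome degrades proteins tagged with ubiquitin. Its barrel, the 20S core, is built of alpha subunits (PSMA genes), which gate entry, and beta subunits (PSMB genes), of which PSMB5, PSMB6 and PSMB7 cut the substrate; the 19S cap binds the ubiquitin chain and feeds the protein in, with ATPase subunits (PSMC genes) that unfold it and non-ATPase subunits (PSMD genes) that recognise it and remove ubiquitin. PSMG chaperones assemble the core and PSMD5, PSMD9 and PSMD10 the base of the cap, PSME proteins are alternative activators, and PSMB8, PSMB9 and PSMB10 replace the catalytic subunits in the interferon-induced immunoproteasome. Dividing cells need the constitutive core and cap, so guides against these genes are commonly used as examples of guides that are lost from a knockout culture.

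The 48 genes were sorted by these roles. The constitutive particle held 31 genes, namely 7 alpha and 7 beta subunits of the 20S core and 6 ATPases and 11 non-ATPases of the 19S cap, with 124 knockout and 93 activation guides. The rest were 3 base assembly chaperones, 4 core assembly chaperones, 4 activators, 3 immunoproteasome subunits, 2 tissue-restricted subunits (PSMA8 of testis and PSMB11 of thymus) and PSMC3IP, a recombination protein that matches by its letters only. All 48 were tested in every comparison, and 191 of the 192 knockout guides and 141 of the 144 activation guides passed the filter on the day 0 level.

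Library totals lay between 31699260 and 34540094 counts in RKO knockout and between 47429044 and 69526489 in SW620 knockout. In the activation screens they lay between 28073257 and 57502347 in RKO and between 3647823 and 26141162 in SW620. Counts were concentrated in few guides in the treated libraries: the 1% of guides with most counts took 41.4% of the total in treated and 3.88% in untreated RKO knockout. In SW620 knockout the same share was 3.2% without drug, 9.55% at 0.38 µM and 31.5% at 0.5 µM, and in the activation screens it was 52.8% in treated and 2.69% in untreated RKO cells. The values below are scaled counts, that is counts divided by a median-ratio size factor of the library, and log2 folds of scaled counts plus 5; a gene's value is the median over its guides. Genes were called at an adjusted p below 0.10 by robust rank aggregation (RRA, which asks whether a gene's guides lie near one end of the ranking of all guides) with a permutation p, Benjamini-Hochberg adjusted over all genes tested. With 1 library per condition, every such test compares libraries, not conditions, and a gene's guides share these libraries.

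Knockout guides against the core and cap stood far below non-targeting guides in RKO after 20 days of untreated growth. All 31 constitutive genes had a median log2 fold of -1 or lower between day 20 and day 0, and their median was -2.75, against 0.09 for all 19093 genes tested. Of their 124 guides, 122 lay below the 5th percentile of the 989 non-targeting guides, which was 0.00. The non-targeting median was 0.51, and the share of all gene-targeting guides below that percentile was not computed. The alpha subunits ranged between -3.93 for PSMA7 and -1.29 for PSMA3, and the beta subunits between -3.56 for PSMB1 and -2.22 for PSMB6, the caspase-like catalytic subunit. The cap ATPases ranged between -3.08 for PSMC1 and -1.04 for PSMC4, and the non-ATPases between -3.35 for PSMD4, a ubiquitin receptor, and -1.73 for PSMD2, a scaffold of the base.

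The core assembly chaperones had a median growth fold of -2.76, against -2.91 for the 20S core, while their guides stood at a higher level at untreated day 20, at 0.0261 of the non-targeting median against 0.0058. At day 0 the same levels were 0.452 and 0.172. A lower start bounds the fold of a guide that ends near 0, so the order of the lowest folds depends in part on the day 0 level. PSMG3, which pairs with PSMG4 to help lay down the alpha ring, had the lowest fold of the 48 genes: its guides had scaled counts of 6.49, 0.721, 70.0 and 2.88 at untreated day 20, against 283, 238, 570 and 400 at day 0. No guide overlapped between these libraries, and the median log2 fold was -5.03 (SD over guides 1.23, n = 4 guides; RRA with permutation p, adjusted p = 0.000149). PSMG1, which pairs with PSMG2, had 24.5, 82.2, 12.3 and 79.3 at day 20, against 373, 309, 115 and 337 at day 0, a log2 fold of -2.41 (RRA with permutation p, adjusted p = 0.0221). PSMG2 and PSMG4 had log2 folds of -3.10 and -1.98 and were not called. The base chaperones PSMD5, PSMD10 and PSMD9 had folds of 0.31, 0.35 and 0.54, close to the non-targeting median of 0.51.

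Immunoproteasome and tissue-restricted subunits had growth folds near 0. The immunoproteasome subunits PSMB9, PSMB10 and PSMB8 had log2 folds of 0.26, 0.40 and 0.41 in RKO, PSMB11 and PSMA8 had -0.04 and 0.50, and PSMC3IP had -0.02. Of the activators, PSME1 and PSME4, which belong to the PA28 and PA200 caps, both had 0.20 and PSME3, the nuclear PA28 gamma, had -0.37. PSME2, the beta subunit of PA28, differed: 3 of its 4 guides had scaled counts of 162, 159 and 161 at untreated day 20, against 397, 409 and 319 at day 0, while the other had 509 against 466. Its median log2 fold was -1.12 (RRA with permutation p, adjusted p = 0.0926), and the call was kept under 3 of 8 alternative settings.

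The count of calls in RKO depended on how the folds were standardised. The test standardised folds in bins of the mean count of the compared libraries, and called 4 of the 48 genes lower (PSMG3, PSMG1, PSMB3 and PSME2; 8.33%), against a background of 6.69% of all genes, so that this share says nothing particular about proteasome genes. Binning guides by their day 0 count instead called 20 of the 48, against 9.85% of all genes: 4 alpha, 6 beta, 7 cap and 3 core chaperone genes. By size alone, a rule chosen after the values were seen, 36 of the 48 had a log2 fold of -1 or lower, against 11.8% of all genes. They were the 31 constitutive subunits, the 4 PSMG chaperones and PSME2.

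**Figure D1:**
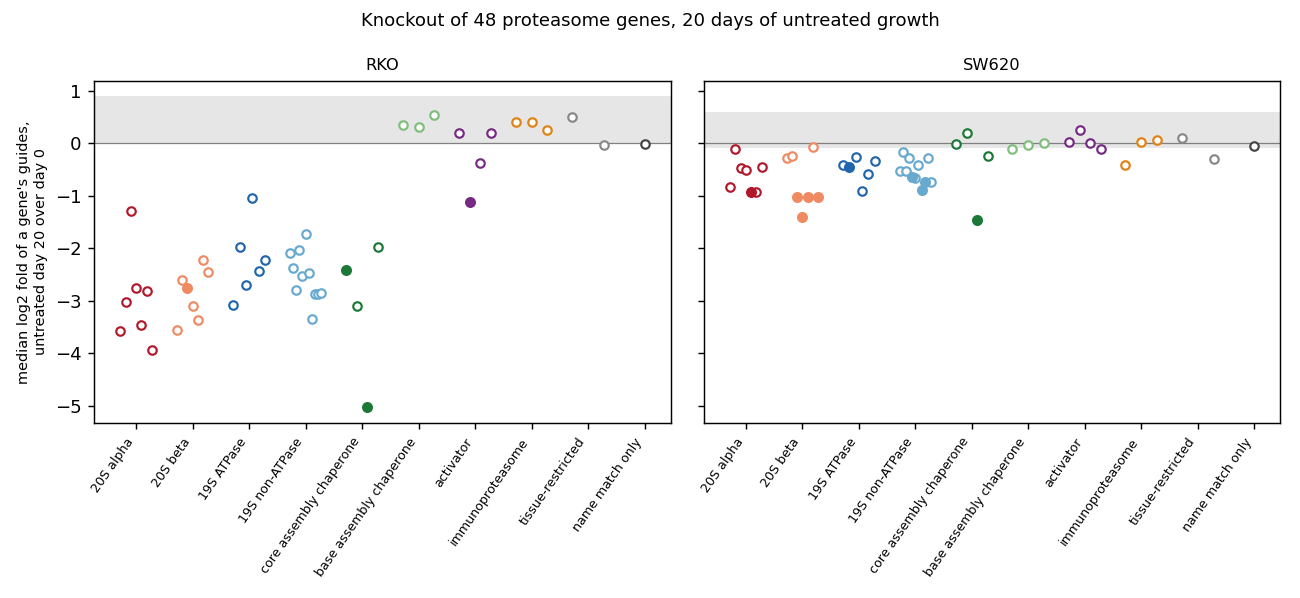
Growth fold of each gene (median over its knockout guides, log2, untreated day 20 over day 0), by class, in RKO (left) and SW620 (right); each circle is 1 gene, filled where it was called lower, and the grey band covers non-targeting guides between their 5th and 95th percentiles. All 31 core and cap genes lie at -1.04 or lower in RKO and between -1.40 and -0.07 in SW620.

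Guide levels near 0 set a limit on how far folds can be measured in RKO. At untreated day 20, 29 of the 124 core and cap guides had no count, against 1.85% of all guides in that library. For the 29, a floor of 3 counts in the later library gives a level at least 12.2-fold to at least 80.6-fold lower than at day 0. Such intervals and floors cover counting error only, since reads of amplified guides without molecular identifiers are not independent molecules. PSMA6, an alpha subunit, had scaled counts of 4.33, 0, 0 and 0 at day 20, against 40.0, 26.4, 33.9 and 56.6 at day 0. PSMD7, which pairs with the deubiquitinase PSMD14, had 0, 0, 0 and 6.49 at day 20, against 37.7, 38.5, 26.4 and 56.6 at day 0. Their day 0 levels were among the lowest of the core, and their folds of -2.81 and -2.87 rest on few counts.

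In SW620 the same guides were lower by less, and the beta subunits had the most calls of any class, 4 of 7. Of the 48 genes, 10 were called lower at untreated day 20 (20.8%), against 3.52% of all 19099 genes; by size, 5 had a log2 fold of -1 or lower, against 1.21% of all genes. All 31 constitutive genes had medians below 0, with a median of -0.52 against 0.04 for all genes. Of their 124 guides, 104 lay below the non-targeting 5th percentile of -0.07. The non-targeting median was 0.25, and the share of all gene-targeting guides below that percentile was not computed. PSMG3 again had the lowest fold, with 176, 122, 352 and 66.9 at day 20 against 465, 368, 843 and 553 at day 0, a log2 fold of -1.47 (RRA with permutation p, adjusted p = 0.000289). PSMB4, a beta subunit without protease activity, had 327, 126, 189 and 218 at day 20 against 845, 550, 524 and 465 at day 0, a log2 fold of -1.40 with the same adjusted p. In both genes every day 20 level was below every day 0 level.

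The other SW620 calls were PSMB3 (-1.03), PSMB7 (-1.03, the trypsin-like site), PSMB5 (-1.02, the chymotrypsin-like site that proteasome inhibitors bind), PSMA5 (-0.92), PSMD4 (-0.89), PSMD6 (-0.74), PSMD14 (-0.65, the deubiquitinase of the cap) and PSMC2 (-0.45). Of the beta subunits, those not called were PSMB6 at -0.07, PSMB2 at -0.25 and PSMB1 at -0.28. Among the alpha subunits PSMA6 was lowest at -0.93 and PSMA2 highest at -0.11, and neither was called. The cap ATPases ranged between -0.91 for PSMC4 and -0.26 for PSMC3, and the non-ATPases between -0.89 for PSMD4 and -0.16 for PSMD11. PSMG1, PSMG2 and PSMG4 had -0.01, 0.19 and -0.25, so that of the core chaperones only PSMG3 was called in this line. The base chaperones had folds between -0.10 for PSMD10 and 0.01 for PSMD9. PSME2 was the highest activator at 0.26 and PSME4 the lowest at -0.11, and the immunoproteasome subunits ran between -0.41 for PSMB10 and 0.07 for PSMB9. PSMB3 and PSMG3 were called in both lines. PSMB3, a beta subunit without protease activity, had 23.1, 10.8, 49.0 and 12.3 at untreated day 20 in RKO, against 198, 268, 301 and 103 at day 0 (log2 fold -2.75; RRA with permutation p, adjusted p = 0.0429). In SW620 it had 398, 419, 495 and 220, against 797, 878, 670 and 470 (adjusted p = 0.00757 by the same permutation test). The libraries did not overlap in RKO and did for 1 guide in SW620.

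Upstream sequences are shown for the beta subunits PSMB3, called in both lines, and PSMB4, among the lowest in SW620. The table of promoter windows from RefSeq (GRCh38.p14) held 42 of the 48 genes. The windows searched run from 250 bases upstream to 50 bases downstream of a start, a gene can have several (1.21 on average for the proteasome genes and 1.29 for all genes), and a gene counts if any of its windows matches; the 250 upstream bases are printed 5′ to 3′ on the gene's strand, chr17:38752491-38752740, plus strand for PSMB3 and chr1:151399323-151399572, plus strand for PSMB4. Capitals mark matches to TTCCG or its reverse complement, the core of the motif read by ETS factors.
PSMB3: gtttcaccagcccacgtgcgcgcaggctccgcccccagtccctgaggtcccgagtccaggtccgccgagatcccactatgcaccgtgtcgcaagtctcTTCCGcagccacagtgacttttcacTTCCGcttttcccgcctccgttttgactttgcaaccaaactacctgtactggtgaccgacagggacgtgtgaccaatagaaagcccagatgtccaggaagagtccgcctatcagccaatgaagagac
PSMB4: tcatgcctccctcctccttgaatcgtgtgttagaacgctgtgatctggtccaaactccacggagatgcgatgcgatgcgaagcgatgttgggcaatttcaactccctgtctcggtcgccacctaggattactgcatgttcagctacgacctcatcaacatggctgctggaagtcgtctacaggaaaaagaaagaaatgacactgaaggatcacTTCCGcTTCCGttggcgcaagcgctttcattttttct
This motif occurred on either strand for 33 of 42 proteasome genes (78.6%) and 23 of 26 core and cap genes (88.5%), against 39.0% of 27305 genes. That background is larger than the 19114 genes of the knockout library and was not matched to the proteasome genes by gene type or expression. The CCAAT box, searched as CCAAT on both strands, occurred for 21 of the 42, 57.7% of the core and cap genes and 39.7% of all genes. TGACNNNGC, the core of the antioxidant response element, the type of site bound by NFE2L1, occurred in 35.7%, 26.9% and 16.1%, and GAAA followed after 2 bases by another GAAA, the core of the interferon-stimulated response element, in 16.7%, 7.69% and 4.38%. All 4 motifs were chosen after earlier results were known and searched on both strands, and a match is a description of the letters. PSMB4 holds a match to the last motif as well. The printed PSMB3 bases also hold matches to the CCAAT box and to TGACNNNGC.

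The 2 lines differed by the test of the difference itself. Growth folds were subtracted guide by guide (RKO minus SW620), and 19 of the 48 genes were called lower in RKO, against 6.99% of all genes. None of the 48 was called higher in RKO, and only 5 of all 19093 genes were (RRA with permutation p). In that direction 4 of the 48 had an unadjusted p of that test under 0.05, against 6.02% of all genes. The difference was below 0 for all 31 constitutive genes, with a median of -2.09 against 0.01 for all genes, and 114 of their 124 guides had a lower fold in RKO. PSMA7, an alpha subunit, had the largest difference at -3.65: its growth fold was -3.93 in RKO and -0.45 in SW620. It was followed by PSMG2 at -3.43, with -3.10 in RKO and 0.19 in SW620, and by PSMB1 at -3.28, with -3.56 in RKO and -0.28 in SW620.

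By role, the calls were 5 alpha subunits (PSMA1, PSMA2, PSMA4, PSMA5 and PSMA7), 4 beta subunits (PSMB1, PSMB2, PSMB3 and PSMB6), 2 ATPases (PSMC2 and PSMC6), 4 non-ATPases (PSMD4, PSMD7, PSMD13 and PSMD14), the chaperones PSMG1, PSMG2 and PSMG3, and PSME2. Of the alpha subunits PSMA3 (-1.32) and PSMA6 (-2.16) were not called, nor were PSMB4 (-1.38), PSMB5 (-1.68) and PSMB7 (-0.98) among the beta subunits, nor the core chaperone PSMG4 (-1.48). The smallest core or cap difference was that of PSMC4 at -0.40. PSME2 had a difference of -1.20, with all 4 guides lower in RKO (RRA with permutation p, adjusted p = 0.0328). Base chaperones had differences between 0.27 for PSMD5 and 0.48 for PSMD9, and immunoproteasome subunits between 0.29 for PSMB9 and 0.91 for PSMB10.

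The growth folds of single genes were weakly correlated between the lines. Over the 31 constitutive genes the Pearson correlation of RKO and SW620 growth folds was 0.161, and over their 124 guides it was 0.192. These are descriptions over genes or guides of 4 libraries, with the same guide sequences used in both lines. At untreated day 20 in RKO, 29 of these guides had no count, so their folds are bounded by their day 0 level. Whether this bound changes the correlations was not tested. Of the 124 guides, 108 had folds below 0 in both lines, 14 in RKO only and 1 in SW620 only.

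The day 0 libraries already differed between the lines for core and cap genes. A comparison of the RKO and SW620 day 0 knockout libraries, added after the data were seen, called 28 of the 48 genes lower in RKO, against 3.23% of all 19100 genes. All 28 belonged to the 31 constitutive genes, whose median log2 difference was -1.26 against 0.00 for all genes. The constitutive genes not called were PSMD2 at -0.14, PSMB6 at -0.17 and PSMD13 at -0.40. By class, alpha subunits ran between -2.11 for PSMA6 and -0.78 for PSMA2, beta subunits between -2.09 for PSMB4 and -0.17 for PSMB6, ATPases between -1.66 for PSMC5 and -0.68 for PSMC1, and non-ATPases between -1.96 for PSMD14 and -0.14 for PSMD2. PSMB4 guides, for example, had scaled counts of 88.3, 73.9, 123 and 73.2 in RKO, against 845, 550, 524 and 465 in SW620, on scales set within each line. The comparison scaled the 2 day 0 libraries together, so these counts do not give its difference of -2.09 and should not be divided across lines. Of the 17 other genes, 0 were called by RRA with permutation p. None of them had an unadjusted p of that test under 0.05 for lower, against 7.72% of all genes.

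The core assembly chaperones were not called at day 0. PSMG1, PSMG2, PSMG3 and PSMG4 had day 0 differences of -0.19, 0.23, 0.06 and 0.12, and PSMG3, PSMG2 and PSMG1 were among the genes whose growth fold was lower in RKO. Relative to non-targeting guides, the median core and cap guide stood at 0.191 in RKO and 0.432 in SW620 at day 0, and the median PSMG guide at 0.452 and 0.461. The median of all gene-targeting guides was 0.430 in RKO and 0.479 in SW620. A growth fold from day 0 therefore starts from a lower level for core and cap guides in RKO, and the fold of PSMG genes does not. Of the 19 genes called in the growth difference, 13 were also called at day 0 and 6 were not. Both comparisons use the same day 0 libraries.

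**Figure D2:**
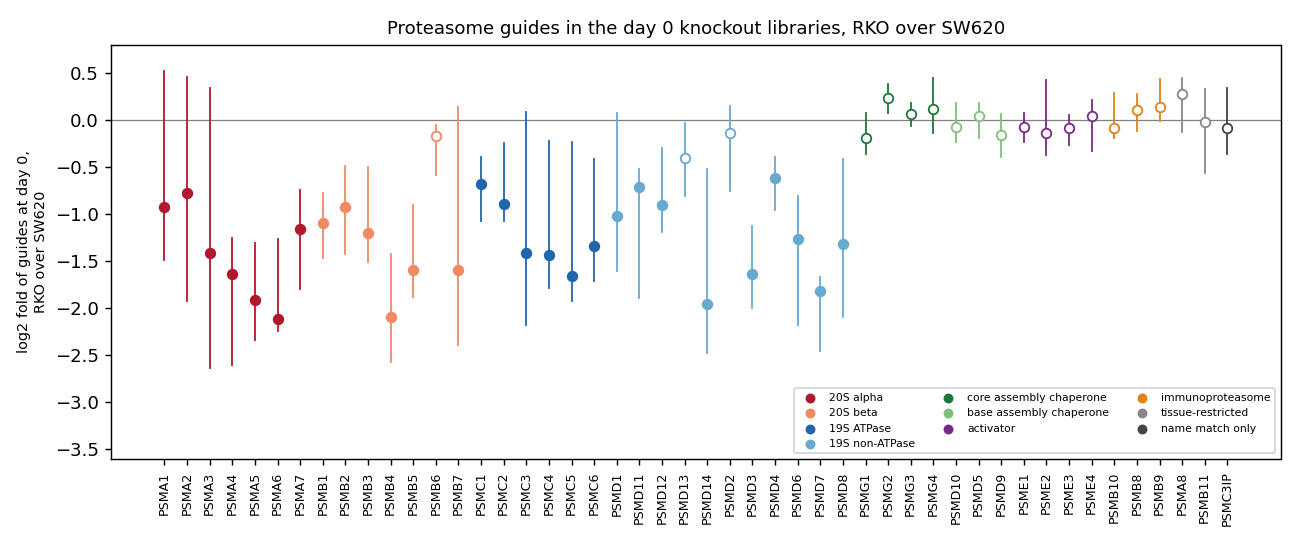
Log2 fold of knockout guides at day 0, RKO over SW620, for each of the 48 genes; circles are the median over guides, filled where the gene was called lower, and lines join the lowest and highest guide. The filled circles all belong to core and cap genes, at -0.62 or lower, while chaperones, activators and immunoproteasome subunits lie between -0.19 and 0.23.

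Genes that work with the proteasome were set beside the members in a list of 28. In RKO growth 5 of 28 were called lower, against 6.69% of all genes, and none higher: UBA1, the ubiquitin-activating enzyme (-4.49), IPO9, a nuclear import receptor (-3.11), SHFM1, a small cap subunit (-2.30), POMP, which matures the core (-1.27), and DDI2, a protease that activates NFE2L1 (-0.94). These calls used bins of the mean count, so a partner without a call can have a larger fall than a called one. The uncalled NPLOC4, for example, had 1.44, 15.1, 7.93 and 58.4 at untreated day 20, against 309, 115, 143 and 156 at day 0. In SW620 growth 4 of 28 were called lower, against 3.52% of all genes: AKIRIN2, needed for nuclear import of proteasomes (-1.48), VCP, the p97 unfoldase (-1.14), SHFM1 (-0.65) and ADRM1, a ubiquitin receptor (-0.41), and UBA1 at -0.90 was the largest not called.

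The line difference was called lower in RKO for 8 of the 28, against 6.99% of all genes. Among them, UBA1 had -3.59, IPO9 -2.81, NPLOC4, a p97 cofactor, -2.31, NGLY1 -2.25, UCHL5, a deubiquitinase of the cap, -1.67, POMP -1.22 and DDI2 -1.08. NGLY1 removes sugar chains from NFE2L1, the factor that raises proteasome gene transcription, and DDI2 cleaves it; NGLY1 had growth folds of -2.00 in RKO and 0.35 in SW620, and DDI2 -0.94 in RKO and 0.15 in SW620. NFE2L1 itself had -0.20 in RKO and 0.07 in SW620, with a difference of -0.39 that was not called. The largest difference not called was that of RPS27A, a ubiquitin gene, at -2.34. At day 0, 6 of the 28 were called lower in RKO, against 3.23% of all genes, among them VCP (-2.12), RPS27A (-1.29), AKIRIN2 (-1.02), POMP (-0.63) and SHFM1 (-0.62), with NFE2L1 at -0.29 the largest not called. NGLY1, DDI2, UBA1 and IPO9 had day 0 differences of 0.03, -0.01, -0.19 and -0.11.

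With oxaliplatin, core and cap guides in RKO stood higher at the median than without it, and no gene was called. Between treated and untreated day 20, 0 of 48 genes were called in either direction by RRA with permutation p, against 0.382% of all genes. At an unadjusted p of that test under 0.05, 0 were lower and 6 higher, against 5.61% and 6.53% of all genes. The median log2 fold of the 31 constitutive genes was 0.69, with 30 of 31 not below 0, against 0.06 for all genes. By size, a rule chosen after the values were seen, 17 of the 48 had a log2 fold of 1 or higher, against 12.8% of all genes. The median core and cap guide stood at 0.0198 of the non-targeting median with drug and at 0.00953 without it, and 6 of 124 guides against 29 had no count. Over all guides of these libraries, 0.854% had no count with drug and 1.85% without. Core and cap guides held 0.0170% of all counts with drug (95% Wilson interval 0.0166% to 0.0175%) and 0.0144% without (0.0140% to 0.0148%). The treated share rests largely on few guides. Of its 5754 counts, single guides of PSMA2, PSMC6, PSMD12 and PSMD6 held 1043, 694, 653 and 469. Without drug the same guides had 342, 61, 186 and 144. The share without them was not computed, so it gives no direction for core and cap guides at large. Non-targeting guides spread widely in this comparison, between -1.17 and 1.96 at the 5th and 95th percentiles. Of the 124 core and cap guides, 23 lay above that range and 7 below it. The share of all gene-targeting guides outside it was not computed.

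Guides of 1 gene differed widely in these RKO folds. PSMD12, a cap scaffold, had the largest fold at 2.73: its guides had 90.1, 1200, 57.0 and 49.6 with drug, against 0, 134, 7.21 and 58.4 without. One guide was thus lower with drug and the others higher, and the gene was not called (RRA with permutation p, adjusted p = 0.342). PSMG3 had 73.5, 33.1, 69.8 and 29.4 with drug, against 6.49, 0.721, 70.0 and 2.88 without, a log2 fold of 2.43. One PSMA2 guide had 1920 with drug, against 247 without, while its 3 other guides were at 25.7 or lower in both libraries. Fold extremes by class were PSMA6 (0.00) and PSMA2 (1.71), PSMB6 (0.02) and PSMB4 (1.80), PSMC1 (0.13) and PSMC4 (1.47), PSMD1 (-0.29) and PSMD12 (2.73), PSMG4 (0.20) and PSMG3 (2.43), PSMD5 (0.22) and PSMD9 (0.65), PSME3 (-0.47) and PSME1 (1.05), and PSMB10 (-0.93) and PSMB8 (1.24). Among partner genes 0 of 28 were called, and UBA1 had the largest fold at 2.58.

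Against day 0, core and cap guides were still low in treated RKO cells. The 31 constitutive genes had a median of -2.09, against -0.03 for all genes, with 29 of 31 at -1 or lower, between -2.83 for PSMC1 and -0.11 for PSMC4. Only PSMG3 was called of the 48, against 2.09% of all genes, with a log2 fold of -2.81 (RRA with permutation p, adjusted p = 0.0211). Of the partners, UFD1L, a p97 cofactor, was called at -2.65, and NGLY1 at -2.49 was the largest not called. This comparison and the untreated one share the day 0 library.

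**Figure D3:**
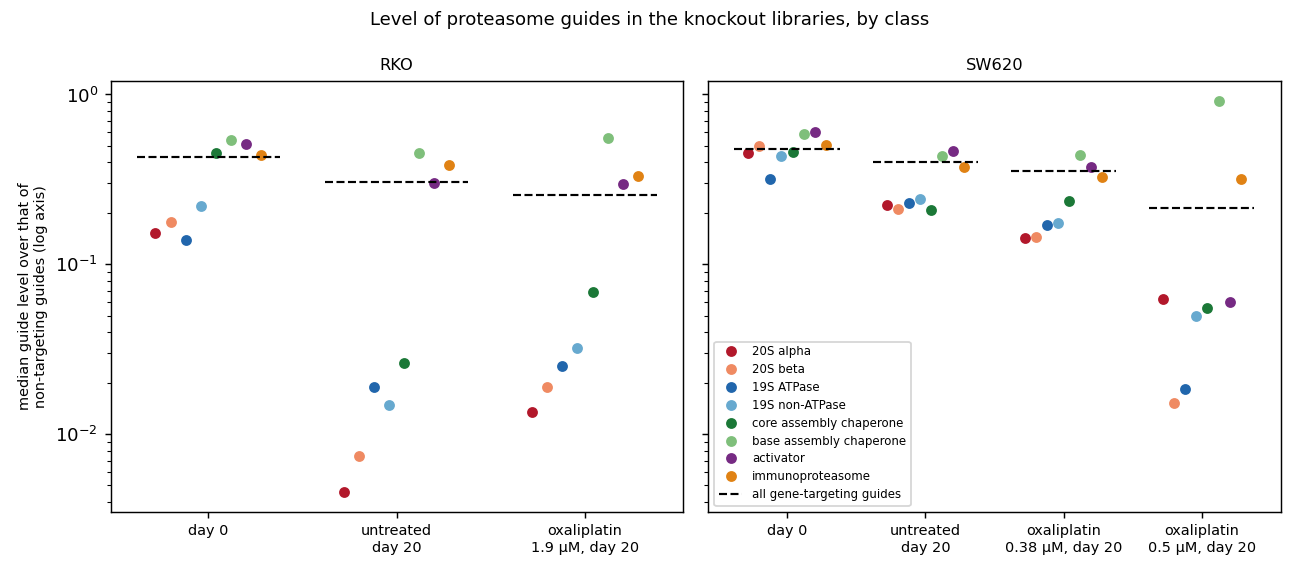
Median scaled count of knockout guides over that of non-targeting guides in the same library (log axis), by class and library; dashed lines give all gene-targeting guides. Core and cap classes stand at 0.00456 to 0.0191 in untreated RKO cells and at 0.212 to 0.244 in untreated SW620 cells.

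In SW620 the proteasome genes had a median log2 fold of -0.03 at the lower dose. At 0.38 µM against untreated day 20, 0 of 48 genes were called by RRA with permutation p, against 0.0471% of all genes. At an unadjusted p of that test under 0.05, 3 were lower and 3 higher, against 5.68% and 6.04% of all genes. Core and cap genes had a median log2 fold of -0.42 against 0.04 for all genes. Of their 124 guides, 43 lay below the non-targeting 5th percentile of -1.03. The non-targeting median was 0.29, and the share of all gene-targeting guides below that percentile was not computed. The 20S core had a median of -0.83 and the 19S cap of -0.09; no test of this difference was made. Extremes were PSMA6 (-1.99) and PSMA3 (0.14), PSMB4 (-1.58) and PSMB6 (0.67), PSMC4 (-1.18) and PSMC3 (1.21), PSMD2 (-2.00) and PSMD3 (0.45), PSMG4 (-0.86) and PSMG2 (0.70), PSMD9 (0.26) and PSMD10 (1.06), PSME3 (-1.5) and PSME1 (0.35), PSMB9 (0.03) and PSMB10 (0.43), and PSMA8 (0.23) and PSMB11 (1.5). AKIRIN2 had the largest fold among 28 partners, at -2.64, and none was called.

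Against day 0, the 0.38 µM library had 2 of 48 genes called lower, against 0.272% of all genes. PSMB4 had 314, 7.69, 40.1 and 102 at 0.38 µM, against 845, 550, 524 and 465 at day 0, with all treated levels below all day 0 levels and a log2 fold of -2.84 (RRA with permutation p, adjusted p = 0.0208). PSMD14 had 856, 36.7, 22.2 and 376 at 0.38 µM, against 953, 679, 530 and 507 at day 0, a log2 fold of -2.23 (RRA with permutation p, adjusted p = 0.0614). In that gene 1 guide stayed within the day 0 range. The lowest constitutive gene was PSMA6 at -2.94 and the highest PSMC3 at 0.87. AKIRIN2 had the largest fold among the partners at -3.76, and none was called.

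At 0.5 µM guide levels scattered widely and no gene was called. Against untreated day 20, 0 of 48 genes were called by RRA with permutation p, against 0.00524% of all genes. At an unadjusted p of that test under 0.05, 2 were lower and 3 higher, against 6.09% and 7.15% of all genes. Core and cap genes had a median of -1.27 against -0.10 for all genes, but the non-targeting guides ran between -2.68 and 3.63. At the median of the 48 genes, the SD over a gene's guides was 0.42 in untreated growth over day 0, 1.24 at 0.38 µM and 2.26 at 0.5 µM over untreated cells. A single PSMB5 guide had 38296 counts, 29.0% of all counts of proteasome guides in that library: the gene's guides had scaled counts of 1690, 101000, 23.6 and 678, against 167, 270, 80.0 and 445 without drug. The core and cap share of counts was 0.130% (95% Wilson interval 0.129% to 0.131%) at 0.5 µM with that guide included, against 0.0868% (0.0860% to 0.0876%) without drug, although the median core and cap guide stood at 0.0304 of the non-targeting median, against 0.231.

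PSMD7 had the lowest fold of the 48 at 0.5 µM. Its guides had 0, 5.25, 2.63 and 49.9 at 0.5 µM, against 166, 229, 193 and 200 untreated, with no overlap and a log2 fold of -4.61 (RRA with permutation p, adjusted p = 0.332). The guide at 0 was at least 25.0-fold lower than at day 0. The other extremes were PSMA7 (-2.79) and PSMA1 (1.95), PSMB2 (-3.16) and PSMB5 (1.95), PSMC5 (-3.42) and PSMC3 (-1.15), PSMD6 (1.29), PSMG2 (-3.32) and PSMG1 (-0.40), PSMD5 (-1.72) and PSMD10 (2.90), PSME4 (-2.32) and PSME1 (1.51), and PSMB9 (-3.14) and PSMB8 (2.74). Against day 0, 0 of 48 genes were called by RRA with permutation p, against 0.0105% of all genes. At an unadjusted p of that test under 0.05, 8 were lower and 0 higher, against 6.82% and 7.16% of all genes. PSMD7 was again lowest at -4.82 (RRA with permutation p, adjusted p = 0.260). VCP was the partner with the largest fold in both comparisons, at -3.84 and -4.98, and no partner was called.

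**Figure D4:**
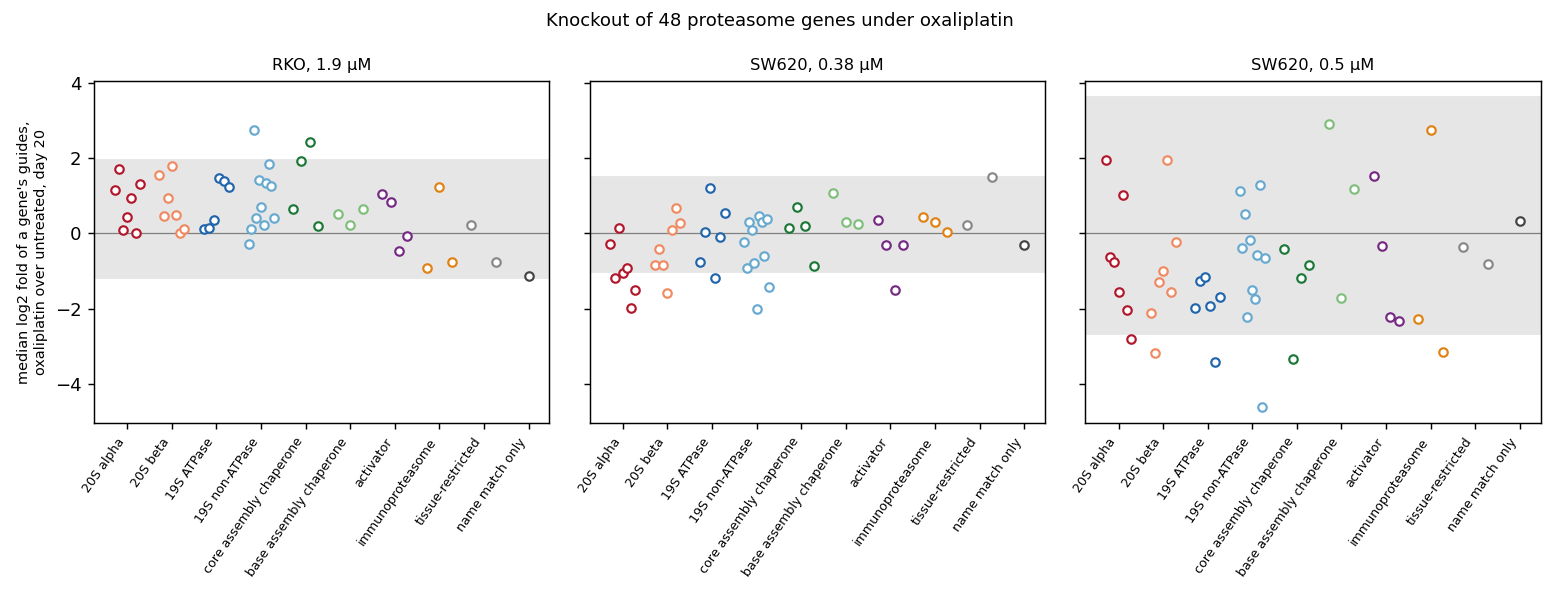
Fold with drug of each gene (median over its knockout guides, log2, treated over untreated at day 20), for RKO at 1.9 µM and for SW620 at each dose; open circles are genes not called, and the grey band covers non-targeting guides between their 5th and 95th percentiles. The band widens to between -2.68 and 3.63 at 0.5 µM, and no gene is called in any panel.

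Guides meant to raise proteasome genes had growth folds near 0. In RKO activation growth, 0 of 48 genes were called lower at untreated day 20 by RRA with permutation p, against 0.101% of all 18777 genes. At an unadjusted p of that test under 0.05, 3 were lower and 1 higher, against 5.45% and 5.55% of all genes. The median of the 48 was -0.06, against 0.02 for all genes. In SW620 activation 1 of 48 was called lower, against 0.192% of all genes, and the median was -0.03, against 0.01 for all genes. Core and cap genes had medians of -0.10 in RKO, between -0.93 for PSMC6 and 0.59 for PSMB5, and of -0.08 in SW620, between -0.45 for PSMC6 and 0.40 for PSMD4. PSMB5 was the highest beta subunit in both lines, at 0.59 and 0.37, without a call. Of 26 partners tested none was called, with UBE3C (-0.79) the largest in RKO and KIAA0368 (-0.88) in SW620. PSMC6 was tested on 2 guides.

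The SW620 gene called was PSME2. Its 3 activation guides had scaled counts of 270, 95 and 29.7 at untreated day 20, against 244, 250 and 161 at day 0. Thus 1 guide was not lower. The raw counts were 91, 32 and 10 at untreated day 20, against 504, 517 and 332 at day 0. That day 20 library held 3647823 counts, with a median of 62 per guide, so the call rests on few reads. The median log2 fold was -1.35, with folds between -2.26 and 0.14 (RRA with permutation p, adjusted p = 0.0460). The adjusted p lay between 0.0342 and 0.123 over 8 alternative settings, 7 of which kept the call. In RKO the 3 activation guides had 59.2, 507 and 261 at untreated day 20, against 188, 358 and 408 at day 0, with a log2 fold of -0.64 that was not called (RRA with permutation p, adjusted p = 0.707). Activation tables number their guides differently in each line, so guides cannot be paired across lines. PSME1, which forms the PA28 ring with PSME2, had -0.65 in RKO, and the activators of SW620 other than PSME2 reached 0.28 for PSME3.

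The PSME2 start lies head to head with that of RNF31, a ubiquitin ligase gene, with 265 bases between the starts. The upstream bases of PSME2 (chr14:24146611-24146860, minus strand, GRCh38.p14, RefSeq) are printed on its strand, with capitals on the match to the core of the interferon-stimulated response element, since PA28 is induced by interferon.
PSME2: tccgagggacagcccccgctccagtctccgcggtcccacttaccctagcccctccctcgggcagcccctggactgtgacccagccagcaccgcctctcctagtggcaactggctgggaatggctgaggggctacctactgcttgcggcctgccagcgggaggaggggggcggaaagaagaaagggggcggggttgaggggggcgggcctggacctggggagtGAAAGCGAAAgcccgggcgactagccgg
The windows of PSME2 and RNF31 overlap by 236 bases. Activation guides named for RNF31 had a log2 fold of -0.14 in SW620 and 0.01 in RKO and were not called. Such an overlap with a gene on the other strand was found for 11 of the 42 genes with a window, and was looked for after the PSME2 values were seen. Other such pairs were PSMB9 with TAP1, whose activation guides had 0.26 and 0.12 in SW620, and PSMD10 with ATG4A, at 0.47 and -0.68 in RKO, where ATG4A was called lower (RRA with permutation p, adjusted p = 0.0762). Where the guides of each gene bind was not analysed here.

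**Figure D5:**
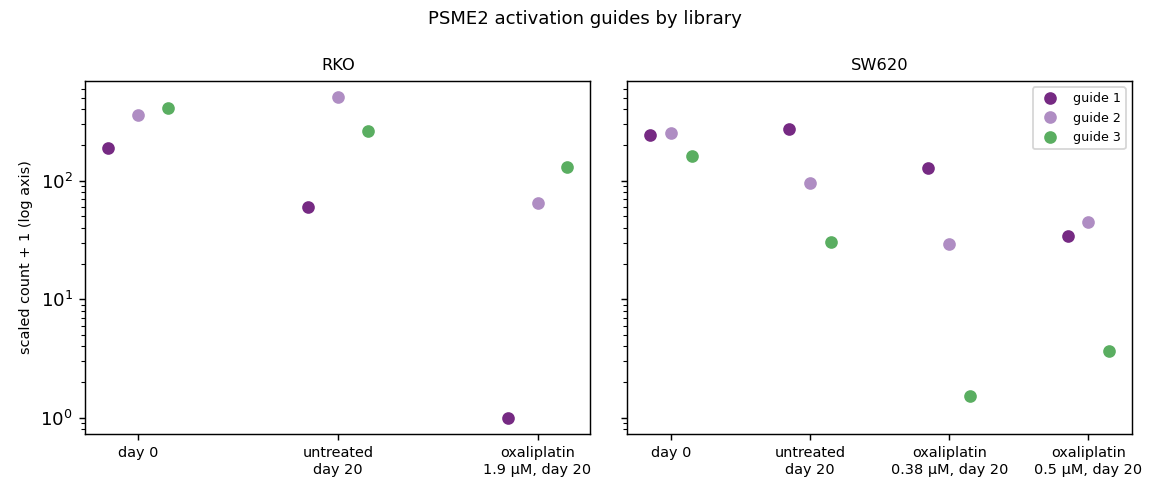
Scaled counts plus 1 (log axis) of the 3 PSME2 activation guides in each library of RKO and SW620; guides are numbered separately in each line. In SW620 guides 2 and 3 were lower at untreated day 20 than at day 0, and all 3 were lower at 0.38 and 0.5 µM than at day 0.

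Under oxaliplatin the activation screens called no proteasome gene. By RRA with permutation p, 0 of 48 were called in RKO at 1.9 µM, against 0.00533% of all genes. At an unadjusted p of that test under 0.05, 1 was lower and 3 higher, against 5.21% and 5.43% of all genes. In SW620, 0 of 48 were called at 0.38 µM, against 0.0373% of all genes, and 0 at 0.5 µM, against 0.0479%. Without adjustment, 1 was lower and 3 higher at 0.38 µM, against 5.24% and 5.2% of all genes. At 0.5 µM, 2 were lower and 2 higher, against 5.06% and 5.25%. In RKO gene-targeting guides as a whole stood low relative to non-targeting ones: the median gene had a log2 fold of -0.82, the non-targeting median was 2.25, and the proteasome genes had -1.28. The median SD over a gene's guides was 2.86 in RKO, 0.92 at 0.38 µM and 0.97 at 0.5 µM.

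Named extremes of the treated activation libraries rested on the few guides of each gene, and none was called. In RKO, PSMG2 had scaled counts of 1600, 644 and 7.15 with drug, against 159, 80.3 and 85.8 without, a log2 fold of 2.93 (RRA with permutation p, adjusted p = 0.705), and PSMG1 had 0, 7.15 and 358 with drug, against 334, 449 and 209 without, a log2 fold of -5.22 (adjusted p = 0.832). The treated raw counts of PSMG1 were 0, 1 and 50. In that library the median guide had 21 counts and 14.3% of guides had none, so such folds rest on few reads. In SW620, PSMD9 had 68.3, 157 and 95 untreated, 414, 460 and 190 at 0.38 µM, and 44.8, 449 and 100 at 0.5 µM. Its log2 folds over untreated cells were 1.52 (RRA with permutation p, adjusted p = 0.770) and 0.07. PSMC6 had log2 folds of 0.84 at 0.38 µM and 2.19 at 0.5 µM. The lowest at 0.38 µM was PSMD10 at -2.49, and the highest in RKO was PSMB2 at 3.08. Every PSMB2 guide was higher with drug, but 3.08 lay between the non-targeting 5th and 95th percentiles of 0.88 and 5.21. PSME2 guides had 270, 95 and 29.7 untreated, 126, 28.5 and 0.529 at 0.38 µM, and 32.9, 43.5 and 2.63 at 0.5 µM. Its log2 folds of -1.58 and -2.18 were the lowest of the activators and were not called. In RKO its guides had 0, 64.4 and 129 with drug, against 59.2, 507 and 261 without, and the guide at 0 was at least 8.74-fold lower than at day 0.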

How the data were processed

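Guide DNA was counted in 14 libraries, 1 per condition. For each of 4 screens the authors deposited raw counts by guide. The submitters' processing notes name cutadapt 4.0 and also MAGeCK 0.5.7, whose settings are not given in the sources used here. A second deposited table per screen holds normalized signal, each column being the count column times 1 constant, and was not used. All columns matched a sample, leaving 0 without one.

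Counts were scaled by median ratio. Log2 folds took a pseudocount of 5. Guides with a day 0 scaled count under 20 were left out (in the day 0 comparison, a mean under 20). Folds were standardised in 50 bins of the mean scaled count. RRA, with rank shares up to 0.25, was set against 2e+06 random rank sets, so that 5e-07 is the smallest p. Genes needed 3 guides for knockout and 2 for activation. The code was tested on simulated data and run with Python 3.11.15, numpy 2.4.6 and pandas 2.3.3. Alternatives were bins of the control library's count, no standardisation, scaling by total or non-targeting guides, a mean-count filter or none, a pseudocount of 1 and an adjusted p below 0.05.

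The members and lists were chosen with earlier results of these data known. By rule, the text names called genes, each class's extremes, uncalled members of mostly called classes and the top uncalled partner. The values of 1 partner gene are not reported here. Small classes are named in part for the activation screens, 0.5 µM and treated over day 0. PSMD12, PSMA2, PSMB5, PSMA6 and PSMD7 guides, NGLY1, DDI2 and NFE2L1 folds, and RNF31, TAP1 and ATG4A were chosen after values were seen. Guide sequences were not used here.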

Additional observations from a re-analysis of the deposited data

Results flagged for a closer look

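The growth folds of 19 proteasome genes differed between the lines by a test of the difference itself, RKO minus SW620 on the log2 scale (RRA with permutation p, Benjamini-Hochberg adjusted over all genes). Adjusted p-values ran between 0.0019 for PSMG3 and 0.099 for PSMA2. Among alpha subunits the differences were -3.65 for PSMA7, -2.63 for PSMA1, -2.52 for PSMA5, -2.28 for PSMA2 and -2.09 for PSMA4. Among beta subunits they were -3.28 for PSMB1, -2.40 for PSMB2, -1.97 for PSMB3 and -1.92 for PSMB6. The cap had -2.58 for PSMD7, -2.46 for PSMD4, -2.20 for PSMC6, -1.80 for PSMD13, -1.63 for PSMD14 and -1.53 for PSMC2. The core chaperones had -3.43 for PSMG2, -3.0 for PSMG3 and -2.56 for PSMG1, and the activator PSME2 had -1.20. Of the 19, 11 were called under each of the 8 alternative settings, and PSMD7 was called under the 7 in which it was tested. PSMA2 and PSMA4 were called under 5, and PSMA7, PSMB6, PSMC2, PSMC6 and PSME2 under 7. At day 0, 13 of the 19 were already called lower in RKO.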

How the results depend on the processing

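With 1 library per condition, no spread between cultures could be measured. No paired analysis was possible because each group holds 1 library. In RKO growth 4 genes were called lower (1278 of all 19093), against 20 (1881 of all) with bins of the day 0 count, 33 (2041) with no standardisation by count and 8 (1390) with scaling by non-targeting guides. For treated RKO over day 0, 1 gene was called (399 of all 19093), against 14 (811) with no standardisation. For SW620 at 0.38 µM over day 0, 2 were called (52 of all 19099), against 0 (22) with no standardisation and 1 (39) at an adjusted p below 0.05. In SW620 activation growth, the call of PSME2 (36 calls of all 18777) gave way to 0 calls (48 of all) with no standardisation. The cause of these changes was not tested. The line difference called between 13 (1025 of all) and 27 (1557) genes over the alternatives, against 19 (1335), and the day 0 comparison 27 or 28. No value changed sign past its test. Over single genes and settings, 1236 values kept their side of the threshold, 90 passed it only under the alternative, 28 passed it only in the original setting and 22 uncalled values changed sign. Guides near 0 counts in untreated RKO bound how far folds can be measured.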
